A study of Mus musculus with 16 samples.

Results

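The genes described here make cholesterol, control its synthesis and move it within and out of the cell. They were listed by symbol for their known roles, with no threshold on their values, at a time when earlier results of these data were known. Of 23420 rows in each table, 28 of the 29 listed symbols were found directly, and Msmo1 was found under its older symbol Sc4mol. RNA had been sequenced from sorted bone marrow progenitors of mice aged 40 weeks. Multipotent progenitors (MPP), which can still form several blood lineages, were sorted without lineage markers or CD150 and with Kit, Sca1 and CD48. Granulocyte-monocyte progenitors (GMP), committed to these 2 lineages, were sorted with Kit and CD16/32 and without lineage markers, Sca1 or CD150. In each population 4 libraries labelled WT, from mice with the genotype Tet2fl/fl, were set against 4 labelled Tet2KO, from mice with the genotype Tet2-/-. The labels used here name no Cre driver and no deleted exon, and 3 mice of each genotype gave both populations.

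Cholesterol is built from acetyl-CoA through mevalonate and squalene, and blood progenitors need it for membranes when they divide. The transcription factors SREBP1 and SREBP2, encoded by Srebf1 and Srebf2, are held in the endoplasmic reticulum by SCAP and the INSIG proteins while sterol is plentiful. When sterol falls they are cut, enter the nucleus and switch on the synthesis genes. Liver X receptors (LXR) sense oxysterols and raise the exporters Abca1 and Abcg1 and the receptor-degrading ligase Mylip. TET2 oxidizes 5-methylcytosine in DNA, and the comparison asks which transcripts differ where it is missing.

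Among the 23 genes with a promoter window, Hmgcs1 alone held the full core of the sterol regulatory element. Promoter sequences are shown for Hmgcs1 and for the pairs Srebf1 and Srebf2 and Insig1 and Insig2, which run the control loop. They come from RefSeq on GRCm38.p6, which shares its coordinates with mm10, and run from 250 bases before a transcript start to 50 after it. Of the 29 genes 23 matched, with 31 windows between them. Sqle, Fdps, Fdft1, Stard4, Npc1 and Abcg1 had no window and were not searched. Capitals mark matches on either strand to TCACNCCAC (sterol element core) or TCACNCCA (the core without its last base), CCAAT (the NF-Y box) and GGGCGG (the GC box bound by Sp1). Apart from the shorter core lying inside the longer one, no matches overlapped in these windows.
Hmgcs1, chr13:119690101-119690400, plus strand: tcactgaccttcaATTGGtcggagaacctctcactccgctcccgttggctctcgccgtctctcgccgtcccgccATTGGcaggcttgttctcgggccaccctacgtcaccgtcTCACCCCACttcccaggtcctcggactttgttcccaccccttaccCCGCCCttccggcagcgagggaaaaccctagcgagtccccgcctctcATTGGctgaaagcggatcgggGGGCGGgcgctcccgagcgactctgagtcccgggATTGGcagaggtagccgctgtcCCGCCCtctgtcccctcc
Srebf2, chr15:82147019-82147318, plus strand: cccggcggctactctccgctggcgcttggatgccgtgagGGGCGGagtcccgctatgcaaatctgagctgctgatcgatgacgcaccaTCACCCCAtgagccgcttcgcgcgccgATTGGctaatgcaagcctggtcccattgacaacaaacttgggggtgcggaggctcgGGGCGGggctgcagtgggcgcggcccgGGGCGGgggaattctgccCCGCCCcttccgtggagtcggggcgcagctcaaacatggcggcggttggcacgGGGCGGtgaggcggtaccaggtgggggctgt
Srebf1, chr11:60210422-60210721, minus strand: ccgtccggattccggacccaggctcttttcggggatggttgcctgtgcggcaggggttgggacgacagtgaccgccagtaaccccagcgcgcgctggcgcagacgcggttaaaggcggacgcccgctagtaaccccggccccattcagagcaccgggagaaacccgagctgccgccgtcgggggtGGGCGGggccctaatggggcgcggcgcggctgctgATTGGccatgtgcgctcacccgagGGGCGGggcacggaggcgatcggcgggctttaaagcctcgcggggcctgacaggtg
Insig1, chr5:28071162-28071461, plus strand: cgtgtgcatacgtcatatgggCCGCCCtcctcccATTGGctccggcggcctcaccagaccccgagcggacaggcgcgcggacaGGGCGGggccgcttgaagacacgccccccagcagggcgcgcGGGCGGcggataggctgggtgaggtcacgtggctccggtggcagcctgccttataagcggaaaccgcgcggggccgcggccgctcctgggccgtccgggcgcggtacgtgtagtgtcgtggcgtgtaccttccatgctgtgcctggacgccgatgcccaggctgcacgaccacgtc
Insig2, chr1:121327629-121327928, minus strand: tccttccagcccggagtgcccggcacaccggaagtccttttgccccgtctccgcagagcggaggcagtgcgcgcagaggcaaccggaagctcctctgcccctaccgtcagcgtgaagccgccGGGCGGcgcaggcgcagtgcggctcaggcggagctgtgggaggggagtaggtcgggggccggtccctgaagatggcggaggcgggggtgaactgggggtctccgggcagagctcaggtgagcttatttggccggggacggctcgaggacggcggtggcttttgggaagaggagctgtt
Insig2, chr1:121332540-121332839, minus strand: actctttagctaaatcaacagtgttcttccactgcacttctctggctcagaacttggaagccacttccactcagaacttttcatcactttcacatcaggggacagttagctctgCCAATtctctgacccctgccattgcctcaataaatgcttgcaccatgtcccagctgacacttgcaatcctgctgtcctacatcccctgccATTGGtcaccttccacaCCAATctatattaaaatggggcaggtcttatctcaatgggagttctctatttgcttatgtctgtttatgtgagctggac

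The Hmgcs1 window held 1 sterol element core, 4 CCAAT boxes and 3 GC boxes. The Srebf2 window held the shorter core, 1 CCAAT box and 5 GC boxes, and Msmo1 was the third gene with the shorter core. The full core was found in 3.23% of the windows of the sterol genes (1 of 31) and in 1.13% of 11571 windows of genes tested in either table. The shorter core, added to the search after the windows had been read, was found in 9.68% and 3.73%. CCAAT stood in 67.7% of the windows of the sterol genes against 37.9%, and the GC box in 83.9% against 61.7%. Over all 32851 windows the shares were 1.24% for the full core, 4.36% for the shorter core, 37.4% for CCAAT and 35.7% for the GC box. The number of CpG sites, the positions at which TET2 acts, had a median of 21 per window of the sterol genes and 20 per window of tested genes. The control pairs ranged widely. The Insig1 window held 38 CpG sites, while the Insig2 windows shown held 28 and 0 and another that is not shown held 17. Srebf1 has 3 windows, of which the one shown held 36 CpG sites and the others 14 and 17. These letters are a description of the sequence and do not show that a factor binds there.

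The tables hold the authors' comparison and no values per library, so neither the level in each mouse nor the depth of a library is known. Each gene has a normalized mean over the libraries of its population, a log2 fold change of Tet2KO over WT and its standard error (SE). With 4 mice a group, the SE carries the spread between mice. Tet2 itself was higher in the libraries labelled Tet2KO, with log2 fold changes of 0.44 in MPP and 0.35 in GMP in the authors' deposited tables. As a value for the whole gene it does not check the labels, and each direction is that of the libraries so labelled. The sorted cells carried their markers, with means for Kit of 7542 in MPP and 6397 in GMP, and Ly6a, which encodes Sca1, had a mean of 266 in MPP and 19.5 in GMP in the authors' deposited tables. In sorted bulk RNA, fewer cells of a type and less RNA per cell cannot be told apart.

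No sterol gene passed an adjusted p of 0.05, the threshold chosen here, in either population. In MPP 26 of the 29 were tested, and 0 of them had an adjusted p (DESeq2, Benjamini-Hochberg) under 0.05, and 3 had an unadjusted p under 0.05, in the authors' deposited table. Over all tested genes 0.616% passed the adjusted threshold and 9.72% had an unadjusted p under 0.05, against 11.5% of the sterol genes. In GMP 25 were tested, with 0 under an adjusted p of 0.05 and 0 under an unadjusted p of 0.05, where 3.96% and 16.4% of all tested genes passed. The smallest DESeq2 adjusted p belonged to Npc2 in MPP (0.194) and to Pmvk in GMP (0.353) in the authors' deposited tables.

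Changes were small on average and lay on both sides of 0. The median log2 fold change of the tested sterol genes was -0.044 in MPP, where 9 lay above 0 and 17 below, and the median of all tested genes was -0.0038. In GMP the median was -0.028, with 11 above and 14 below, and that of all tested genes was 0.00025. Regardless of sign, the median size was 0.13 in MPP and 0.063 in GMP, beside 0.13 and 0.12 over all tested genes.

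**Figure D1:**
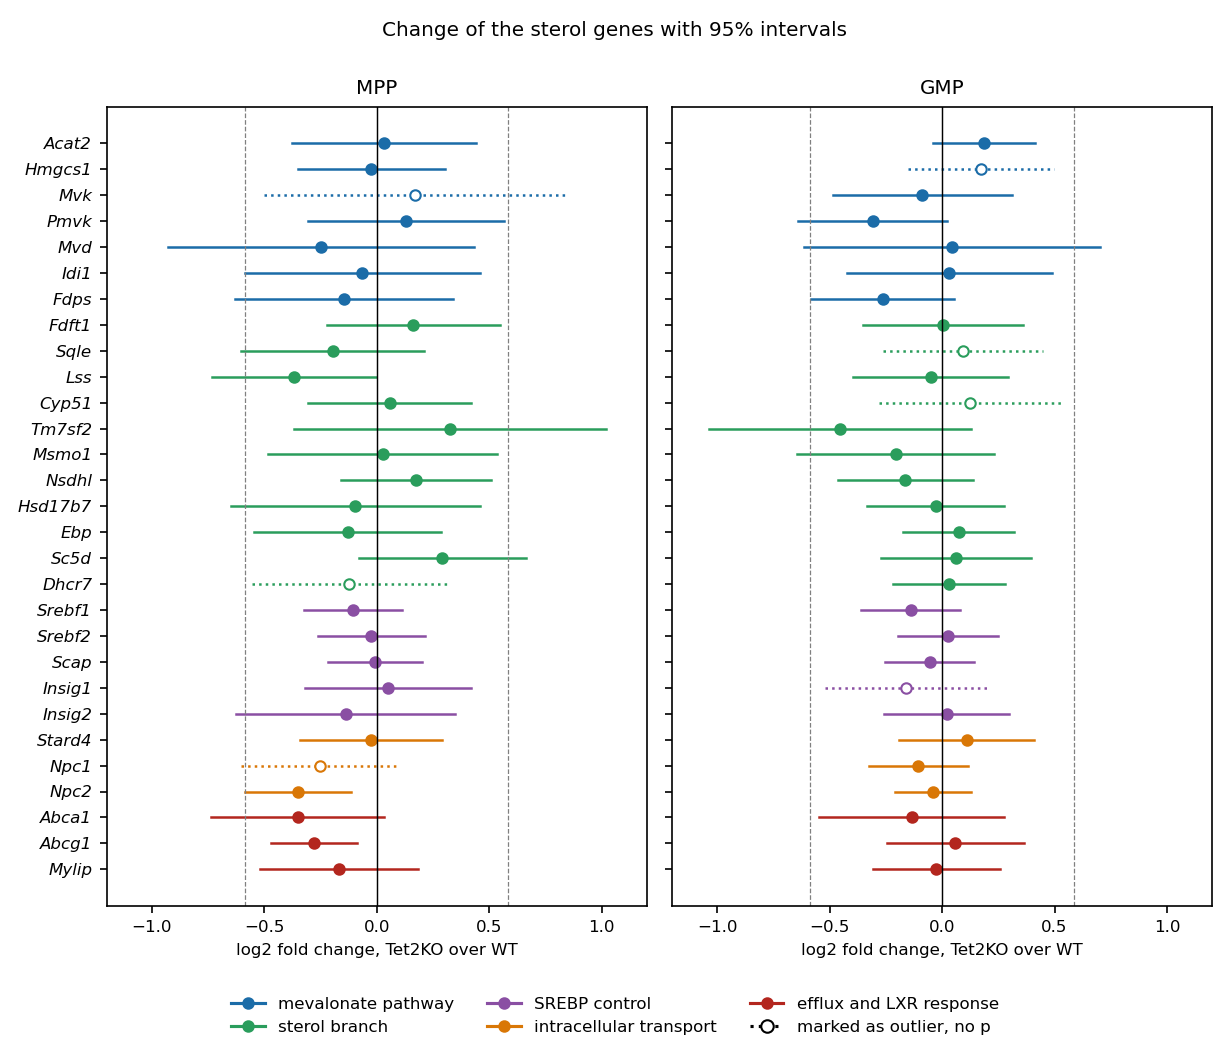
Log2 fold change of Tet2KO over WT (x axis) of each sterol gene (rows) in MPP and GMP, from the authors' deposited tables. Points are the estimates, lines their 95% intervals, open points with dotted lines are genes marked as outliers without a p, and dashed lines mark a 1.5-fold change. In GMP 25 of 29 intervals lie between the dashed lines, and in MPP 16 do.

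A missed threshold does not show that a gene stayed the same, so the intervals give the range of changes each estimate covers. The 95% interval around the log2 fold change, as drawn in the plot of intervals by gene, lay within a 1.5-fold change in either direction for 15 of 26 tested sterol genes in MPP (57.7%, against 64.3% of all tested genes). In GMP it did so for 21 of 25 (84.0%, against 74.4%). Counting the genes marked as outliers, it lay within a 2-fold change for 28 of 29 in each population. The exception was Tm7sf2 in both, with a mean of 39.9 in MPP and 36.1 in GMP in the authors' deposited tables. No SE in the authors' deposited tables exceeds 0.388 in MPP or 0.359 in GMP, as with fold changes shrunken towards 0, so the values of weak genes may be understated. With SEs so limited, the interval of a small change lies within 2-fold for any gene. The share of all genes within that bound was not counted, so the 28 of 29 is no trait of the sterol genes.

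The enzymes of the mevalonate pathway, which turn acetyl-CoA into the farnesyl unit shared by sterols and prenyl groups, showed no common direction. In MPP 4 of 7 lay below 0 and 3 above, and in GMP 3 below and 4 above. Hmgcs1, the synthase that makes HMG-CoA, had a log2 fold change of -0.024 (SE 0.166, adjusted p = 0.979) in MPP and 0.17 (SE 0.165) in GMP, where it was marked as an outlier and has no p, in the authors' deposited tables. Its promoter, shown above with the full sterol element core, thus belongs to a gene whose MPP interval ran from -0.35 to 0.30. Pmvk, phosphomevalonate kinase, had a value of 0.13 (SE 0.223) in MPP against -0.31 (SE 0.169, adjusted p = 0.353) in GMP in the authors' deposited tables. Fdps, which makes farnesyl pyrophosphate, had values of -0.15 (SE 0.248) and -0.26 (SE 0.162, adjusted p = 0.432). Acat2, the cytosolic thiolase of the first step, was at 0.032 (SE 0.208) and 0.19 (SE 0.115, adjusted p = 0.435), in MPP and GMP of the authors' deposited tables. The mevalonate kinase Mvk (0.17 in MPP, marked as an outlier, and -0.088 in GMP), the decarboxylase Mvd (-0.25 and 0.044) and the isomerase Idi1 (-0.064 and 0.032) completed the group in the authors' deposited tables. Mvd was the weakest of all, with means of 25.3 and 20.0 and SEs of 0.347 and 0.337.

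The sterol branch, from squalene to cholesterol, spread from -0.37 to 0.32 in MPP. In GMP it spread from -0.45 to 0.12. In MPP 6 of 11 genes lay above 0, and in GMP 6 of 11. Lss, lanosterol synthase, which closes the sterol rings (chr10:76531588-76557138, plus strand, mm10), had a log2 fold change of -0.37 (SE 0.186, unadjusted p = 0.0481, DESeq2 adjusted p = 0.507) in MPP against -0.051 (SE 0.175, adjusted p = 0.929) in GMP in the authors' deposited tables. Its MPP interval ran from -0.73 to -0.0031. Sc5d, a late desaturase, was at 0.29 (SE 0.189, adjusted p = 0.658) in MPP and 0.063 in GMP, and Nsdhl, which removes a methyl group with its partners, at 0.17 and -0.16, in the authors' deposited tables. Tm7sf2, a sterol reductase, had the highest value of all sterol genes in MPP and the lowest in GMP, 0.32 (SE 0.354, adjusted p = 0.834) in MPP against -0.45 (SE 0.297, adjusted p = 0.475) in GMP, in the authors' deposited tables.

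The squalene epoxidase gene Sqle, a rate-limiting step of the branch, was at -0.20 (SE 0.208, adjusted p = 0.832) in MPP and 0.094 (SE 0.182) in GMP in the authors' deposited tables. Cyp51, lanosterol demethylase, was at 0.057 (SE 0.186) and 0.12 (SE 0.207), and both were marked as outliers in GMP. The methyl oxidase Msmo1 was at 0.025 and -0.21, and the squalene synthase Fdft1 at 0.16 and 0.0036. The reductase Hsd17b7 was at -0.096 and -0.028 and the isomerase Ebp at -0.13 and 0.074, in MPP and GMP of the authors' deposited tables. Dhcr7, the last reductase of one arm, was at -0.12 in MPP, marked as an outlier, and 0.031 in GMP. None of those tested had an unadjusted p under 0.05.

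The regulators of synthesis lay close to 0, with a median size of the log2 fold change of 0.051 in MPP and 0.041 in GMP among those tested. Srebf2 (chr15:82147181-82205379, plus strand, mm10), whose product drives the cholesterol genes, had log2 fold changes of -0.025 (SE 0.122, adjusted p = 0.974) in MPP against 0.027 (SE 0.113, adjusted p = 0.946) in GMP in the authors' deposited tables. Its intervals ran from -0.26 to 0.21 and from -0.19 to 0.25. Srebf1, the lipogenic partner, was at -0.10 (SE 0.111, adjusted p = 0.832) and -0.14 (SE 0.112, adjusted p = 0.594), and Scap, the sterol-sensing escort, at -0.0083 (SE 0.107) and -0.055 (SE 0.101), in the authors' deposited tables. Insig1, which retains SCAP and is itself a sensitive SREBP target, was at 0.051 (SE 0.188, adjusted p = 0.971) in MPP and -0.16 (SE 0.185) in GMP, where it was marked as an outlier. Insig2, the paralogue that is less tied to SREBP, was at -0.14 (SE 0.248) and 0.021 (SE 0.142), in MPP and GMP of the authors' deposited tables. For Srebf1, Srebf2, Scap and Insig1 both intervals lay within a 1.5-fold change.

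Genes that carry sterol out of lysosomes and out of the cell held the smallest unadjusted p-values of the list, both in MPP and both with lower values in Tet2KO. Npc2 (chr12:84754562-84773152, minus strand, mm10), the soluble lysosomal cholesterol carrier, had a log2 fold change of -0.35 (SE 0.120, unadjusted p = 0.00346, adjusted p = 0.194) in MPP against -0.039 (SE 0.0863, adjusted p = 0.888) in GMP in the authors' deposited tables. Abcg1 (chr17:31057675-31117988, plus strand, mm10), an exporter of sterol to lipoprotein particles, was at -0.28 (SE 0.0980, unadjusted p = 0.0043, adjusted p = 0.214) and 0.058 (SE 0.155, adjusted p = 0.911). Neither passed the threshold, and their MPP intervals ran from -0.59 to -0.12 and from -0.47 to -0.088. Together with Lss they were the 3 genes with an unadjusted p under 0.05, all below 0. Over all tested genes 4.8% had such a p with a value below 0.

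The other genes of these groups lay below 0 in MPP as well. Abca1, which exports sterol to lipid-poor apolipoprotein, was at -0.35 (SE 0.197, adjusted p = 0.568) in MPP against -0.13 (SE 0.210, adjusted p = 0.823) in GMP, and Mylip, the LXR-induced ubiquitin ligase, at -0.17 (SE 0.179, adjusted p = 0.832) and -0.025, in the authors' deposited tables. Npc1, the membrane partner of Npc2, was at -0.25 (SE 0.178) in MPP, marked as an outlier, and -0.11 (SE 0.112, adjusted p = 0.710) in GMP. The carrier Stard4 was at -0.025 and 0.11, in MPP and GMP of the authors' deposited tables. All 6 transport and efflux genes were thus below 0 in MPP, and 4 of 6 in GMP, with none called. This count pools intracellular transport with efflux, and it includes Npc1, which has no p in MPP, and Stard4, which lay near 0. A separate list of genes of sterol esterification, transport and oxysterol metabolism showed no such side. Of its tested genes 9 lay above and 9 below 0 in MPP (median -0.0047), and 8 above and 9 below in GMP. Over all tested genes 49.1% were above 0 in MPP and 50.1% in GMP.

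Macrophages express many of these transport genes, so their markers were read beside them. Of 13 monocyte and macrophage markers 3 were tested in MPP, 6 were marked as outliers, 3 were too low to test and 1 was not in the table under its symbol. Their summed normalized mean was 2671 in MPP and 5578 in GMP, in tables normalized separately. The complement gene C1qb, a marker of resident macrophages, was at -0.51 (SE 0.373, adjusted p = 0.706) with a mean of 30.9 in MPP, and the lysozyme gene Lyz2 at -0.28 (adjusted p = 0.241), in the authors' deposited table. Cd68, a lysosomal protein gene and the third marker tested, was at 0.29 (SE 0.223, adjusted p = 0.734) there. Markers with outlier marks lay on both sides of 0 in MPP of the authors' deposited table, among them Ccr2 at 0.89, Ly6c2 at 0.79, the growth factor receptor gene Csf1r at 0.34, C1qc at -0.51 and Vcam1 at -0.51. In GMP 8 markers were tested. By the authors' deposited table, Csf1r and Cd68 rose by 0.56 and 0.34 (adjusted p = 9.29e-05 and 0.0322) and Vcam1 fell by 1.24 (adjusted p = 9.66e-06). The part of such cells in the values of Npc2, Abcg1 and Abca1 was not tested.

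**Figure D2:**
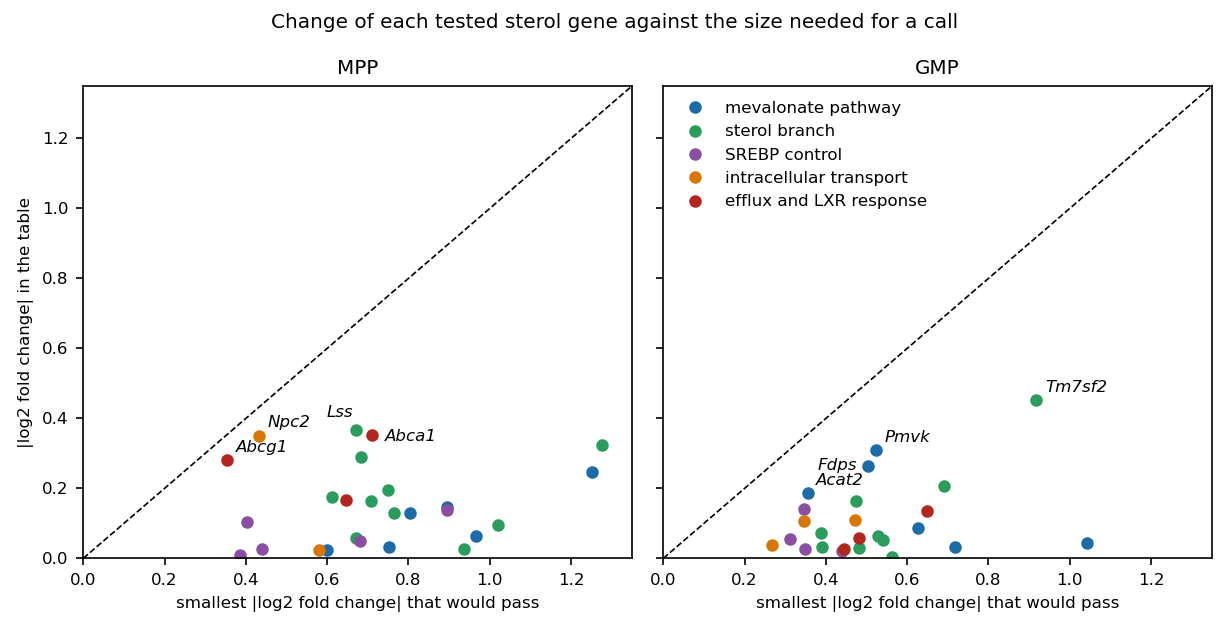
Size of the log2 fold change of each tested sterol gene (y axis) against the smallest size that would have passed the authors' adjusted threshold at that gene's SE (x axis), in MPP and GMP. Points on the dashed line would just pass. All lie below it, and Npc2 and Abcg1 in MPP come nearest.

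The size needed for a call differed between the populations. From the largest p that was called in each table, a gene had to reach 3.61 SEs in MPP and 3.09 in GMP. For the tested sterol genes this corresponds to a change from 1.28-fold to 2.42-fold in MPP, with a median of 1.62-fold, and up to 2.06-fold in GMP, with a median of 1.395-fold. Abcg1 would have been called in MPP at a log2 fold change of 0.35 and Npc2 at 0.43, as the plot of observed against needed size shows. These sizes are cut-offs on the estimates. How often a true change of a given size would be called for these genes was not computed.

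SEs of the sterol genes were larger than those of other genes at the same level. Each was ranked among the genes whose mean was 0.8 to 1.25 times its own. The median percentile was 74.0 in MPP and 85.9 in GMP, with 23 and 24 of 29 genes above the middle, and 10 and 11 above the 90th percentile. In GMP Cyp51 had 2.04 times the median SE of 1300 genes of like mean, Sqle 1.86 times, Hmgcs1 1.72 times and Insig1 1.69 times. In MPP Npc1 (1.56 times), Sqle (1.53 times), Abca1 (1.44 times) and Dhcr7 (1.43 times) stood highest. The lowest percentiles were those of Srebf1 in MPP (5.38) and of Acat2 (6.84) and Ebp (8.21) in GMP.

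Outlier marks were more frequent than over all genes of sufficient level. In GMP the 4 marked sterol genes were Hmgcs1, Sqle, Cyp51 and Insig1, which is 13.8% of the list against 2.66% of the 11817 genes whose mean reached 10. In MPP they were Mvk, Dhcr7 and Npc1, 10.3% against 3.50% of 12289 genes. A mark means that the authors gave no p, and their log2 fold changes ran from -0.16 to 0.17 in GMP and from -0.25 to 0.17 in MPP in the authors' deposited tables. Which library stood apart, and whether it was 1 library for all 4 genes, was not tested for want of values per library.

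**Figure D3:**
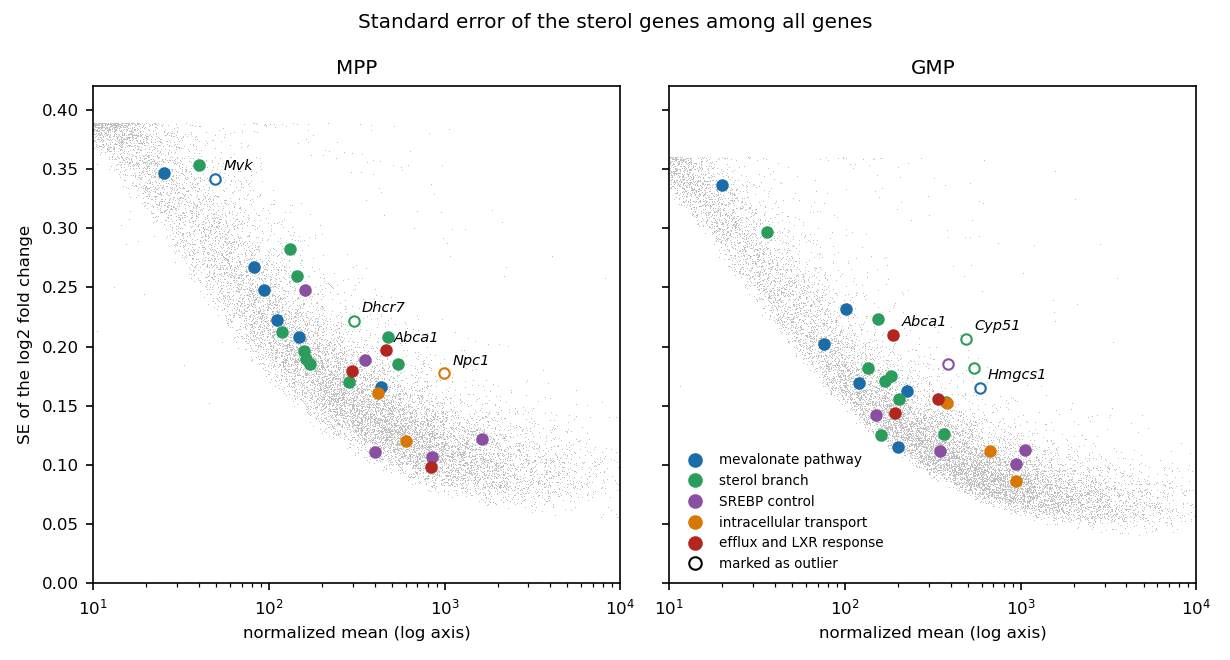
SE of the log2 fold change (y axis) against the normalized mean (x axis, log scale) for all genes not marked low (grey points) and for the sterol genes (coloured by role, open where marked as outliers), in MPP and GMP. Most sterol genes lie in the upper part of the grey band, and the 4 open points of GMP lie near its upper edge.

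The change of a sterol gene was then compared between populations by dividing the gap between its estimates by the SE of that gap. Of 22 tested in both populations 0 passed (Benjamini-Hochberg over 17660 genes, smallest adjusted p = 1.00) and 1, Npc2, had an unadjusted p under 0.05. Over all 17660 genes 0.0453% passed and 3.58% had such a p. Many of these were marked low in a population, as none of the 22 was, so the shares come from a weaker set. For Npc2 the difference, GMP minus MPP, was 0.31 (95% interval 0.022 to 0.60), for Abcg1 0.34 (-0.022 to 0.70) and for Tm7sf2 -0.78 (-1.68 to 0.13). The deposited tables share mice, which this test does not allow for.

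**Figure D4:**
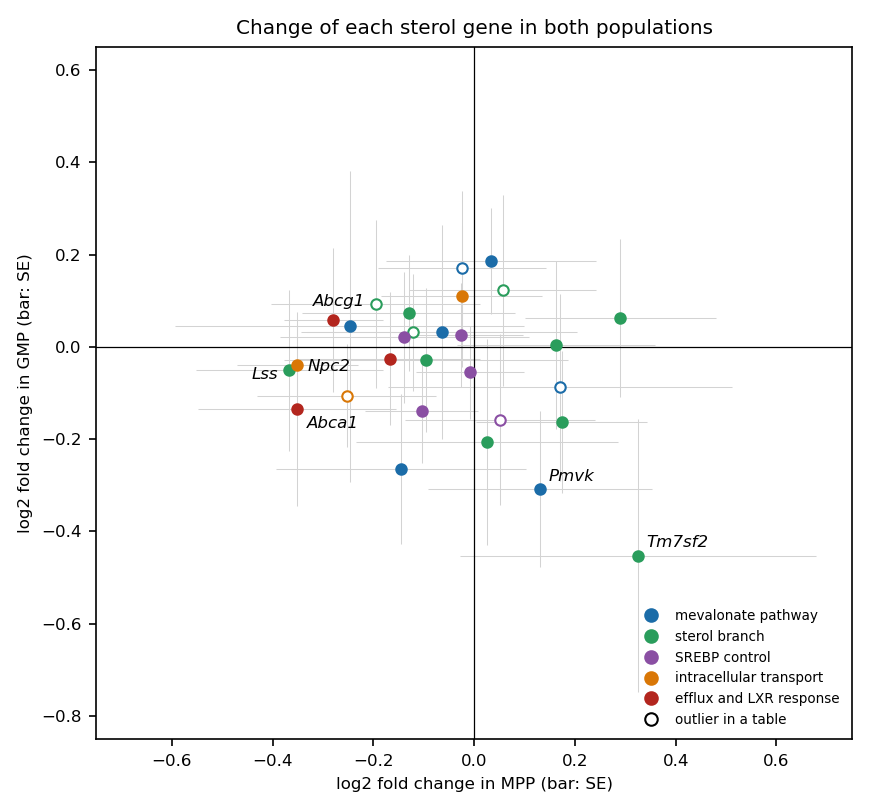
Log2 fold change of Tet2KO over WT in MPP (x axis) and GMP (y axis) for each sterol gene, with SE bars and open points where a gene was marked as an outlier in a table. The points surround the origin, with Lss, Abca1, Npc2 and Abcg1 farthest to the left and Tm7sf2 at the lower right.

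Levels per kb of annotated exon spanned all roles, with Srebf2 among the highest in both populations. In MPP Srebf2 had the highest normalized mean per kb (227), followed by Cyp51 (122), Abcg1 (114), Insig1 (114) and Scap (113). In GMP the order began with Npc2 (173), Srebf2 (148), Nsdhl (132), Hmgcs1 (127) and Scap (126). Tm7sf2 (9.07 in MPP) and Mvd (13.6 and 10.8) were lowest in both. The exon length used is that of all annotated exons of a gene joined, for example 10787 bases for Lss and 5438 for Npc2. It can exceed the length of the transcript expressed, so the order between genes is uncertain. The means are the authors' and cover both genotypes, so no spread between mice can be given for these levels and neighbours in the order were not tested.

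The efflux genes took a larger share of the MPP table than of the GMP table. As shares of the summed means, Abcg1 was 2.88 times, Abca1 2.86 times and Mylip 1.80 times as high in MPP as in GMP. Srebf2 (1.79 times) and Npc1 (1.74 times) were on the same side, and Fdps (0.485 times) on the other. The median ratio was 1.09 for the sterol genes and 1.11 for 11618 genes measured in both, of which 9.18% had a ratio over 2. The tables were normalized separately and these ratios have no test.

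**Figure D5:**
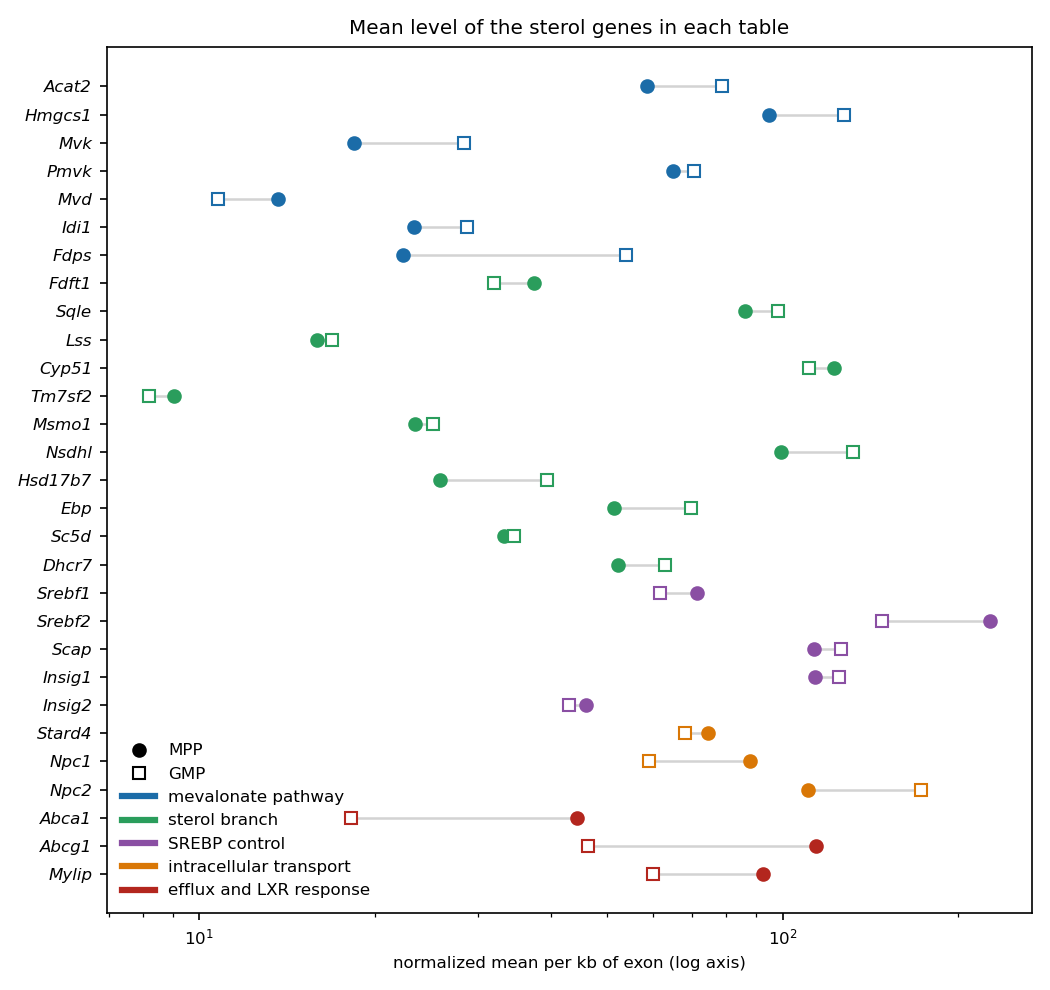
Normalized mean per kb of exon (x axis, log scale) of each sterol gene (rows) in the MPP table (filled circles) and the GMP table (open squares), coloured by role. Srebf2 has the highest MPP value (227), and Abca1 and Abcg1 have the widest gaps towards MPP.

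Other genes of lipid metabolism were read from lists by role. In GMP 13, 16, 7, 17 and 3 genes of these lists were tested, in the order described below. Of them 4 were called there, where 3.96% of all tested genes were, and none was called in MPP. None of the 13 genes of the isoprenoid branch, which leads from the mevalonate pathway to prenyl groups and ubiquinone, was called in either table (13 tested in each), and Fnta, a subunit of the protein farnesyltransferase, was at -0.33 (SE 0.133, adjusted p = 0.159) in GMP of the authors' deposited tables. In MPP the value of smallest p was that of the prenyl protein protease Zmpste24, -0.23 (SE 0.112, adjusted p = 0.484). A list of 17 genes held those of SREBP processing and sterol-regulated degradation, and with them the nuclear receptor genes Nr1h2, Nr1h3, Rxra and Rxrb. Of the 17, 16 were tested in each table and 1 was called. Nr1h3, which also stands among the further LXR targets below, was the gene not tested. Rnf145, a ubiquitin ligase of the endoplasmic reticulum, fell by 0.24 in GMP (adjusted p = 0.0198, SE 0.0681) in the authors' deposited table, where 2.22% of all tested genes were called lower and 1.75% higher. Its MPP value was -0.12 (SE 0.114, adjusted p = 0.801).

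Fatty acid genes known as SREBP1 targets showed 1 call in each direction in GMP among 7 tested of 12. Over all tested genes in GMP 2.22% were called lower and 1.75% higher. The elongase Elovl5 fell by 0.27 (adjusted p = 0.00169, SE 0.0621) and the desaturase Fads1 rose by 0.43 (adjusted p = 0.0252, SE 0.125), as the authors' deposited table gives them. In MPP none of 10 tested was called, and the values were -0.11 (SE 0.0824) for Elovl5 and 0.25 (SE 0.116, adjusted p = 0.457) for Fads1. In GMP 4 of the 12, Fasn, Acaca, Scd2 and Elovl6, were marked as outliers, with log2 fold changes of 0.085, -0.0097, -0.069 and 0.12 in the authors' deposited table. Their SEs were 2.05, 1.59, 1.98 and 2.01 times the median of genes of like mean. In MPP none of these 4 was marked.

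Of 23 genes of sterol esterification, transport and oxysterol metabolism 17 were tested in GMP. There 1 was called higher, where 1.75% of all tested genes were. Soat1, which esterifies cholesterol for storage, rose by 0.31 in GMP (SE 0.0940, adjusted p = 0.0326) and had a value of 0.22 (SE 0.166, adjusted p = 0.720) in MPP in the authors' deposited tables. None of 18 tested was called in MPP, where Cyp7b1, an oxysterol hydroxylase, was at -0.68 (SE 0.274, adjusted p = 0.341). Of 5 further LXR targets 3 were tested in each table with none called, and Lpcat3, a phospholipid-remodelling enzyme, was at -0.21 (SE 0.137) in MPP against -0.16 (SE 0.0841, adjusted p = 0.337) in GMP in the authors' deposited tables. The receptors themselves differed in level, with means for Nr1h2 (LXR beta) of 264 in MPP and 303 in GMP, while Nr1h3 (LXR alpha) had 7.52 and 8.56 in those tables and was too low to test.

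Proliferation genes were mostly below 0. Of 20 tested 19 were below 0 in each table, where 49.1% (MPP) and 50.1% (GMP) of all tested genes were above 0, with medians of -0.13 in MPP and -0.12 in GMP. None was called in MPP, where the spindle gene Tpx2 was at -0.23 (SE 0.0984, adjusted p = 0.393), and 3 of 20 were called lower in GMP, where 2.22% of all tested genes were. Ccnb1, Cdk1 and Plk1, which drive entry into mitosis, fell by 0.33, 0.39 and 0.28 (adjusted p = 0.00362, 0.0145 and 0.0384) in the authors' deposited table. The 18 enzymes of the mevalonate pathway and the sterol branch lay 9 above and 9 below 0 in MPP, and 10 above and 8 below in GMP.

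Some counts may include reads of a neighbour, since the strand setting of the counting is not given in the sources used here. Ctsb, a lysosomal protease on the opposite strand, overlaps 18.3% of the exon bases of Fdft1 in the GENCODE annotation of mm10. Vps51 on the same strand overlaps 12.1% of those of Tm7sf2, and a predicted gene on the same strand overlaps 26.7% of those of Fdps. Predicted or unnamed genes on the opposite strand overlap 13.2% of the exon bases of Scap, 12.1% of those of Hmgcs1 and 9.22% of those of Idi1. The values of these 6 genes are therefore uncertain, and smaller overlaps touch Lss, Cyp51, Srebf1 and Npc1.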

How the data were processed

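The submitters' processing notes name STAR, DESeq2 and the build mm10 without versions. Which program counted reads, and over which annotation, is not given in the sources used here. Per the labels' protocols, 2 ng of RNA per mouse was amplified before sequencing, and the replicates of a group are individual mice. The authors deposited 1 table per population. Its mean is a normalized signal over all libraries of the population, its log2 fold change and SE are those of Tet2KO over WT per the file headers, and its p-value and adjusted p-value are the authors' own, as deposited. The p recomputed as the two-sided normal p of the fold change over its SE, and the adjusted p as the Benjamini-Hochberg value over genes of status OK (largest difference 2.4e-05 in MPP and 5.42e-06 in GMP). Genes were called at an adjusted p of 0.05.

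The members and lists were chosen with earlier results of these data known. All 29 members are named. Of each other list the called genes are named, at most 4 per table, or else that of smallest p. Some genes of these lists are not reported here. The difference between populations used the normal test over all genes with a p in both tables, and calls and that test were tested on simulated data. The simulated errors were normal at the deposited SEs and independent, as the tests assume, so the shared mice were not simulated. Intervals are normal ones (95%). Levels per kb used the joined length of all exons of a gene in GENCODE M21, which held all 29. Alternatives were other thresholds, a minimum mean of 50, recentring, an empirical null, Benjamini-Yekutieli adjustment, testing of outlier-marked genes, correlated errors, and leaving out Msmo1, the last chosen after seeing the data. Tools were scipy 1.17.1, pandas 2.3.3 and numpy 2.4.6 under Python 3.11.15, and figures were drawn in matplotlib 3.10.9.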

Additional observations from a re-analysis of the deposited data

How the results depend on the processing

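The count of called sterol genes was 0 in MPP and in GMP under all 8 alternatives each, and 0 for the difference between populations under its 5. The smallest adjusted p among them ran from 0.185 to 1.00 in MPP, from 0.331 to 1.00 in GMP and from 0.395 to 1.00 for the difference. The lowest of the last came with errors taken as correlated at 0.346. That value is the correlation across genes of fold change over SE in both populations, which also includes changes that both share. None of the 490 alternative values changed direction or side of the threshold. For most of them this was fixed in advance. For a single gene only recentring alters the fold change, so direction could change there alone. The threshold of 0.01, Benjamini-Yekutieli adjustment, the empirical null within a population and leaving out Msmo1 could not raise a count of 0. The medians lay between -0.064 and -0.041 in MPP and between -0.029 and -0.025 in GMP. Counts over all genes moved more: with an empirical null 17 genes were called in MPP and 72 in GMP in place of 73 and 456, with Benjamini-Yekutieli adjustment 22 and 157, and at an adjusted p of 0.01 36 and 198. At 0.10 they were 100 and 768. For the difference, 49 genes passed with correlated errors and 17 with an empirical null, in place of 8. Leaving out single libraries was not run, because the tables hold no values per library. No paired analysis was possible because the tables hold no values per library. The labels give WT and Tet2KO no shared numbers, while MPP and GMP share numbers and some of their mice. Depth per library is unknown, and precision is limited by the SEs, which ranged from 0.098 to 0.354 for the sterol genes in MPP and from 0.0863 to 0.337 in GMP.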
